A study of Mus musculus with 6 samples.

Results

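The SPARC family of secreted matrix proteins was examined as 8 genes, *Sparc*, *Sparcl1*, *Smoc1*, *Smoc2*, *Spock1*, *Spock2*, *Spock3* and *Fstl1*, taken by symbol from a table of read counts for 24421 gene symbols. All 8 symbols were found, and 7 of them passed the filter on low counts that left 13479 genes for testing. The samples were 6 RNA-seq libraries of untreated cells in primary culture, labelled as endothelial. The cells were taken from the stria vascularis, the capillary-rich tissue of the cochlear lateral wall. They came from *Nhe6*-knockout mice (3 cultures) and wildtype mice (3 cultures) at postnatal day 10 to 12. The knockout carried a targeted disruption of *Nhe6*, which encodes an endosomal sodium–hydrogen exchanger. The labels gave C57BL/6N as the strain background of both genotypes, while the methods of the study named C57bl6/j. By the methods of the study, the stria vascularis was dissected together with the spiral ligament, so the starting tissue held both. This tissue of several mice was pooled for a culture, and endothelial cells were purified by sorting and then grown in endothelial medium. A replicate was therefore a pooled culture, and the labels did not say whether replicates were prepared on separate days, so that p-values measured the spread between these cultures.

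Proteins of the SPARC family share a follistatin-like domain and, in most members, an extracellular calcium-binding domain, which in SPARC contacts collagen. SPARC and its relative SPARCL1 (hevin) are matricellular proteins, which modulate how cells attach to collagen rather than build the matrix, and both are abundant in vascular and connective tissue. SMOC1 and SMOC2 are basement membrane proteins that bind heparan sulfate and are known as modulators of bone morphogenetic protein (BMP) signalling. The testicans, encoded by *Spock1*, *Spock2* and *Spock3*, are proteoglycans known best from brain, and FSTL1 is a secreted glycoprotein that binds BMP4.

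Because the members are related in sequence, their coding sequences were compared before their counts. For each gene the transcript with the longest coding sequence was used (GENCODE, GRCm38). None of the 28 pairs of members shared a run of 75 bases, the length of a read, and the longest shared run was 33 bases, in *Smoc1* and *Smoc2*. The next longest was 19 bases, in *Spock1* and *Spock2*, and *Sparc* and *Sparcl1* shared at most 14 bases. The windows of 75 coding bases around the shared runs are given below with the shared bases in capitals, since they show how close the nearest relatives come to each other over a read. The *Smoc1* window lies on the plus strand at chr12:81170275-81179536 and the *Smoc2* window on the plus strand at chr17:14397607-14399428, each across 2 exons with the intron left out. The *Sparc* window lies on the minus strand at chr11:55399228-55399302 and the *Sparcl1* window on the minus strand at chr5:104087061-104087135, each within 1 exon.
Smoc1: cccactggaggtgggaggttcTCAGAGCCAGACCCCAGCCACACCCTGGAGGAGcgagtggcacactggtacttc
Smoc2: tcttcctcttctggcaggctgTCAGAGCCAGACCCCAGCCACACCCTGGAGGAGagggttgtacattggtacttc
Sparc: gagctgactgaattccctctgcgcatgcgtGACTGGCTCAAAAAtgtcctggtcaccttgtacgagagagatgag
Sparcl1: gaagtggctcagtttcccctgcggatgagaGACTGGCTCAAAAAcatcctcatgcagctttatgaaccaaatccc
Where genes overlap, reads of both strands can only be told apart by a count that uses strand, and the strand setting was not given in the sources used here. *Sparcl1* overlaps *Gm26703* and *Smoc2* overlaps *4930474M22Rik* on the opposite strand, while *Smoc1* and *Spock2* each host a microRNA gene. *Spock3* overlaps 3 genes on its own strand and 1 on the other. The members are protein-coding genes on 8 different chromosomes, *Sparc* at chr11:55394500-55423183, *Sparcl1* at chr5:104079111-104113733, *Smoc1* at chr12:81026808-81186414 and *Smoc2* at chr17:14279506-14404790. *Spock1* lies at chr13:57421195-57908332, *Spock2* at chr10:60106219-60135198, *Spock3* at chr8:62951009-63357103 and *Fstl1* at chr16:37776873-37836514.

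The libraries held 25587097 to 29126232 reads counted in genes. Wildtype replicate 2 stood apart from the rest, with a score of 112 on a first principal component that held 50.8% of the variance, against -30.4 to -6.49 for the other 5 libraries. *Nhe6*-knockout replicates 1 and 2 were far closer to each other (mean chi-square per gene 4.91) than any other pair of libraries (90.1 to 398). They were kept as 2 samples, as labelled. They differed by more than sampling noise, but 2 libraries of the same culture could differ so too, so this does not show separate cultures. Values with their counts summed are therefore given beside the results.

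Cell type markers did not all match the endothelial label. Of 10 endothelial markers 5 passed the filter (*Cdh5*, *Kdr*, *Tek*, *Emcn* and *Eng*), *Kdr* with at most 68 reads in a library. The other 5 were absent or nearly so. *Cldn5* had 0 reads in each library, *Tie1* at most 2, *Pecam1* at most 8, *Erg* at most 15 and *Vwf* at most 25. The summed normalized counts of the endothelial list were 15494 to 23950 in *Nhe6*-knockout and 7571 to 21260 in wildtype cultures. The sum was lowest in wildtype replicate 2 through *Emcn* and *Eng*, while *Cdh5*, *Tek* and *Kdr* were at their highest in that library. For 6 fibroblast markers, all of which passed the filter, the sums were 79031 to 88543 and 75327 to 83841, and for 8 mural markers, again all past it, 21584 to 23356 and 16156 to 29905. The remaining lists were far lower. Macrophage markers (4 of 5 tested) summed to 316 to 436 in *Nhe6*-knockout and 61.9 to 883 in wildtype cultures, and melanocyte markers (2 of 5 tested) to 392 to 672 and 281 to 828. Glial markers (3 of 4 tested) summed to 399 to 800 and 500 to 665, and epithelial markers (4 of 4 tested) to 56.8 to 664 and 3.1 to 1088. In bulk samples such as these, fewer cells of a type and less RNA per cell cannot be told apart.

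*Sparcl1*, *Sparc* and *Fstl1* were among the most highly expressed genes of these cultures, while the *Smoc* genes and testicans were expressed at intermediate to very low levels. Levels were compared as normalized counts (reads scaled to a common library size) per kilobase of exon, over 13407 tested genes with a known exon length. *Sparcl1* ranked 6 by its mean of 49268 per kilobase, *Sparc* ranked 18 with 23035, and *Fstl1* ranked 46 with 12050. *Smoc1* followed at rank 2102 with 639 per kilobase, *Spock2* at 2582 with 533 and *Smoc2* at 4742 with 267. *Spock3* was near the bottom, at rank 12001 with 12.2 per kilobase.

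**Figure D1:**
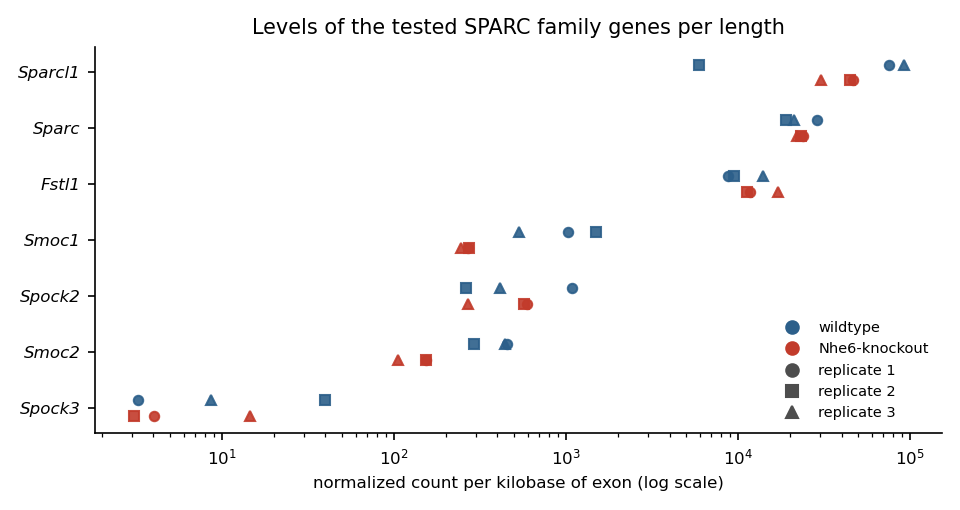
Normalized count per kilobase of exon (horizontal axis, log scale) for the 7 tested SPARC family genes, with 1 point per culture (colour: genotype; symbol: replicate). *Sparcl1*, *Sparc* and *Fstl1* lie far to the right of the other members, and the *Sparcl1* point of wildtype replicate 2 (5963) lies apart from its other 5 points (30535 to 91705).

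The order of these levels was only partly stable across cultures. Per kilobase, *Sparc* was above *Fstl1* in 6 of 6 libraries, *Fstl1* above *Smoc1* in 6 of 6 and *Smoc1* above *Smoc2* in 6 of 6. *Sparcl1* was above *Sparc* in 5 of 6 libraries, the exception being wildtype replicate 2. *Smoc1* and *Spock2* did not differ beyond their spread, since *Smoc1* was the higher in 0 of 3 *Nhe6*-knockout and 2 of 3 wildtype libraries, and *Spock2* was above *Smoc2* in 4 of 6.

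The share of reads that the family held varied between cultures mainly with *Sparcl1*. Together the 8 genes held 0.968% to 1.07% of gene reads in the *Nhe6*-knockout cultures, and 1.39%, 0.515% and 1.51% in wildtype replicates 1 to 3. The *Nhe6*-knockout shares thus lay inside the wildtype range. Within the family, *Sparcl1* made up 34.5% to 47.1% of reads in *Nhe6*-knockout cultures, and 57.5%, 12.0% and 63.3% in the wildtype cultures. *Sparc* made up 31.1% to 32.1% in *Nhe6*-knockout cultures and 28.2%, 49.8% and 18.8% in wildtype replicates 1 to 3. All members other than *Sparc*, *Sparcl1* and *Fstl1* added up to 1.22% to 6.15% of family reads.

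The comparison of genotypes asks how the *Nhe6*-knockout cultures differed from the wildtype cultures. *Smoc1* and *Smoc2* were the members with the clearest difference, both lower in *Nhe6*-knockout cultures. The study had already reported both as downregulated from these same libraries, and the members were chosen with earlier results known. The counts and the median below are therefore a description and not independent support. Of the 7 tested members, 0 passed an adjusted p of 0.05 in edgeR's quasi-likelihood test, where 0.0668% of all genes tested did, and 2 had an unadjusted p under 0.05, where 11.8% of all genes did. With limma-voom the count was again 0, against 0.0742% of all genes. With DESeq2 it was 2, *Smoc1* and *Smoc2*, against 4.69% of all genes. In edgeR's test without wildtype replicate 2 it was also 2, the same genes, against 2.88% of all genes. With the *Nhe6*-knockout replicates 1 and 2 summed to 1 sample it gave 0, in a fit that called 1 gene of all those tested. The median log2 fold change of the tested members was -0.51 (*Nhe6*-knockout over wildtype), beside -0.02 for all genes tested, and 6 of the 7 were below 0, *Sparc* among them at -0.00071.

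**Figure D2:**
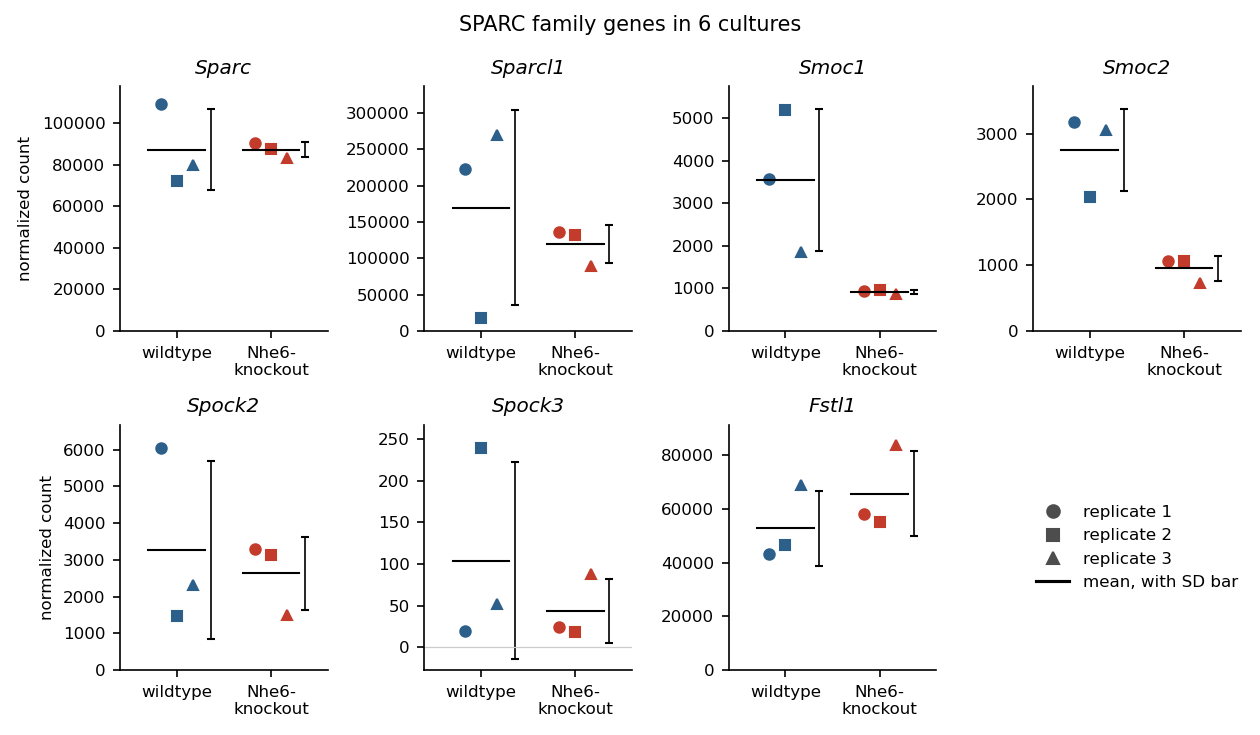
Normalized counts (vertical axes, linear, scaled per gene) of the 7 tested members in each culture, with the mean of each genotype (line) and the SD (bar, n = 3). For *Smoc1* and *Smoc2* each *Nhe6*-knockout point lies below each wildtype point, while the groups overlap for the other 5 genes.

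*Smoc1* had 947, 957 and 862 normalized counts in the *Nhe6*-knockout cultures (replicates 1 to 3) and 3578, 5196 and 1857 in the wildtype cultures (replicates 1 to 3). The groups did not overlap, and the *Nhe6*-knockout cultures were tightly grouped while the wildtype cultures ranged over 2.8-fold. The wildtype level was 3.84-fold that of *Nhe6*-knockout cells, a difference of -1.94 on the log2 scale (standard error 0.36, unadjusted p = 0.00135, edgeR adjusted p = 0.109). Without wildtype replicate 2, where *Smoc1* was highest, the log2 fold change was -1.56 (standard error 0.27, edgeR adjusted p = 0.0428). With *Nhe6*-knockout replicates 1 and 2 summed it was -1.97 (standard error 0.46, edgeR adjusted p = 0.464).

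*Smoc2* had 1061, 1066 and 733 normalized counts in the *Nhe6*-knockout cultures (replicates 1 to 3) and 3170, 2041 and 3062 in the wildtype cultures (replicates 1 to 3). Here too the groups did not overlap, but wildtype replicate 2 was the lowest wildtype culture for *Smoc2* and the highest for *Smoc1*. The wildtype level was 2.89-fold that of *Nhe6*-knockout cells, a difference of -1.53 on the log2 scale (standard error 0.23, unadjusted p = 0.000473, edgeR adjusted p = 0.0941). Without wildtype replicate 2 it was -1.71 (standard error 0.19, edgeR adjusted p = 0.0217), and with *Nhe6*-knockout replicates 1 and 2 summed -1.62 (standard error 0.29, edgeR adjusted p = 0.458). Across 14 alternative fits, the log2 fold change of *Smoc1* stayed between -2.26 and -1.56 and that of *Smoc2* between -1.71 and -1.38, and each had an adjusted p below 0.05 in 2 of them.

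These 2 genes were the only tested members whose groups did not overlap, both with the *Nhe6*-knockout cultures below, as held for 9.57% of all genes tested. Of the 5 tested endothelial markers, 1 moved the same way without overlap, *Cdh5* (VE-cadherin), with 179 to 232 normalized counts in *Nhe6*-knockout and 2509, 5200 and 3470 in wildtype replicates 1 to 3. The other 4, *Emcn*, *Eng*, *Tek* and *Kdr*, overlapped between the genotypes. The part of these marker values in the *Smoc1* and *Smoc2* result was not tested.

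**Figure D3:**
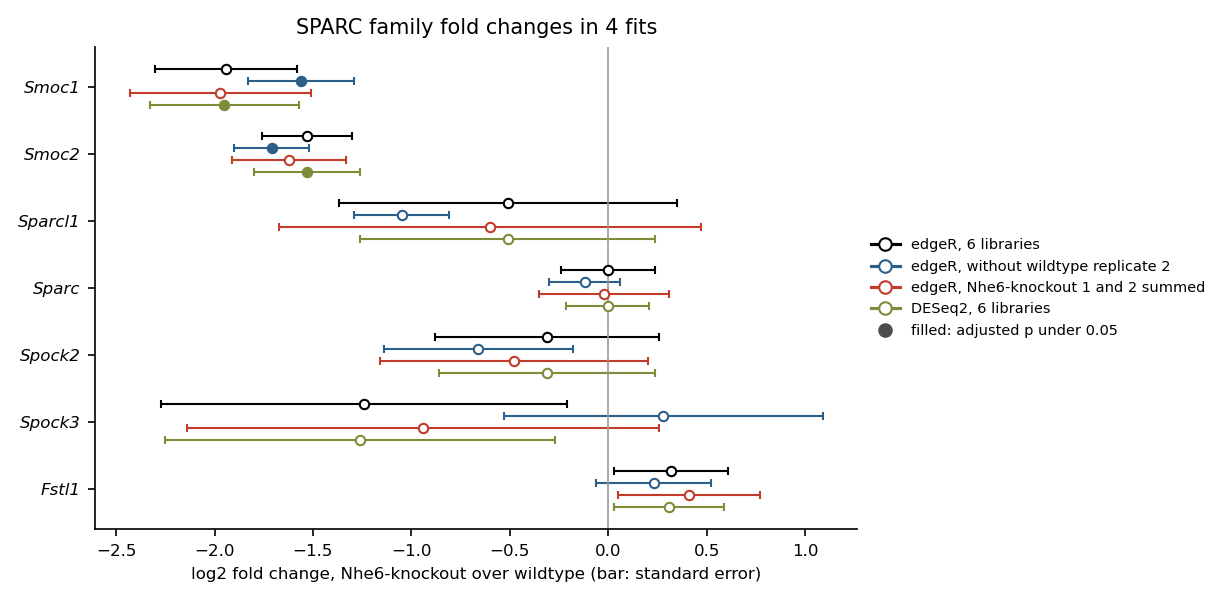
Log2 fold change of *Nhe6*-knockout over wildtype (horizontal axis, bars: standard error) for the 7 tested members in 4 fits, with filled points where the adjusted p was under 0.05. *Smoc1* and *Smoc2* lie below -1.5 in each of the 4 fits, with filled points in the fit without wildtype replicate 2 and in DESeq2, while *Spock3* changes side without wildtype replicate 2.

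*Sparcl1* had the widest spread of the highly expressed members. It had 136981, 131754 and 89680 normalized counts in the *Nhe6*-knockout cultures (replicates 1 to 3) and 222938, 17514 and 269339 in the wildtype cultures (replicates 1 to 3). Wildtype replicates 1 and 3 were above each *Nhe6*-knockout culture and wildtype replicate 2 was far below. With all libraries the log2 fold change was -0.51 (standard error 0.86, edgeR adjusted p = 0.869). Without wildtype replicate 2 it was -1.05 (standard error 0.24, unadjusted p = 0.00426), and its adjusted p of 0.0798 in edgeR's test still missed the threshold. In that comparison *Sparcl1* joined *Smoc1* and *Smoc2*, so that 3 of 7 members were lower in *Nhe6*-knockout cultures without overlap, as were 19.3% of all genes.

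The low *Sparcl1* value of wildtype replicate 2 stood beside other marker values of that library. Of the 5 tested endothelial markers, 2 were lowest there, *Emcn* (endomucin) with 410 normalized counts against 9900 to 18393 in the other 5 libraries and *Eng* (endoglin) with 867 against 2722 to 5081. The other 3 were highest there, *Cdh5* with 5200, *Tek* with 1006 and *Kdr* with 70.2. Marker lists of other cell types did not move as one either. *Acta2* (smooth muscle actin) had 16275 there against 29.3 to 1204, and *Cspg4* was also highest there with 4410, but the mural markers *Pdgfrb* (7793), *Rgs5* (29.9) and *Des* (4.13) were lowest. Of the 6 fibroblast markers *Col1a1* was highest there, with 27187 against 207 to 1228, and the other 5 were lowest, among them *Pdgfra* with 10087 and *Lum* with 1156. The part of these differences in the *Sparcl1* value was not tested.

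*Sparc* was nearly level between the genotypes. It had 90479, 87870 and 83356 normalized counts in the *Nhe6*-knockout cultures (replicates 1 to 3) and 109276, 72364 and 80193 in the wildtype cultures (replicates 1 to 3). The *Nhe6*-knockout values lay inside the wildtype range. The mean was 87235 ± 3604 in *Nhe6*-knockout and 87278 ± 19449 in wildtype cultures (SD, n = 3 each), and the log2 fold change had a standard error of 0.24 (edgeR adjusted p = 0.999). Across 14 alternatives it lay between -0.12 and 0.19, with changes of sign.

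*Fstl1* was the 1 tested member with a log2 fold change above 0 with all libraries. It had 57983, 55242 and 83764 normalized counts in the *Nhe6*-knockout cultures (replicates 1 to 3) and 43034, 46542 and 68716 in the wildtype cultures (replicates 1 to 3). Replicate 3 was the highest culture of each genotype, and the groups overlapped through wildtype replicate 3. The log2 fold change was 0.32 (standard error 0.29, edgeR adjusted p = 0.735), and over 14 alternatives it lay between 0.09 and 0.55.

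The testicans ranged from moderate expression to near absence. *Spock2* had 3282, 3138 and 1488 normalized counts in the *Nhe6*-knockout cultures (replicates 1 to 3) and 6032, 1463 and 2302 in the wildtype cultures (replicates 1 to 3). Wildtype replicate 1 alone stood above the *Nhe6*-knockout cultures, and the groups overlapped. The log2 fold change was -0.31 (standard error 0.57, edgeR adjusted p = 0.880). Without wildtype replicate 1 it was 0.48.

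*Spock3* had 24.4, 18.6 and 88.0 normalized counts in *Nhe6*-knockout and 19.6, 239 and 52.4 in wildtype replicates 1 to 3. Wildtype replicate 2 alone stood above the rest. The log2 fold change of -1.24 (standard error 1.03, edgeR adjusted p = 0.703) turned to 0.28 without that culture. *Spock1* was below the filter, with 5, 5 and 0 reads in *Nhe6*-knockout and 0, 1 and 0 in wildtype replicates 1 to 3. A count of 0 allows up to 3 reads in a library, so that no difference in *Spock1* was detectable at this depth.

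The wildtype cultures were the more variable group for each of the 7 tested members, as they were for 82.1% of all genes tested. On the log2(normalized count + 1) scale, the SD among wildtype cultures was largest for *Sparcl1*, at 2.20 against 0.34 among *Nhe6*-knockout cultures. For *Smoc1* it was 0.75 against 0.08, and for *Smoc2* 0.35 against 0.31. Leaving out wildtype replicate 2, the wildtype SD was 0.19 for *Sparcl1* and 0.04 for *Smoc2*, but still 0.67 for *Smoc1*. *Smoc1* thus also differed between wildtype replicates 1 and 3, while *Smoc2* and *Sparcl1* were close in them.

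Ratios of relatives within a culture, which do not depend on library size, showed how unevenly each pair moved. The ratio of *Smoc1* to *Smoc2* reads was 0.893, 0.898 and 1.18 in the *Nhe6*-knockout cultures and 1.13, 2.55 and 0.607 in the wildtype cultures, in replicate order. The *Nhe6*-knockout ratios lay within the wildtype range. The mean log2 ratio was -0.03 ± 0.23 in *Nhe6*-knockout and 0.27 ± 1.04 in wildtype cultures (SD, n = 3 each), a difference of -0.30 (exact permutation test, two-sided p = 0.8, with 0.1 the smallest p that 3 against 3 allows). The difference was 0.25 without wildtype replicate 2.

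The ratio of *Sparcl1* to *Sparc* reads was 1.08 to 1.51 in the *Nhe6*-knockout cultures, and 2.04, 0.242 and 3.36 in the wildtype cultures in replicate order. Wildtype replicates 1 and 3 were above each *Nhe6*-knockout culture, and replicate 2 was below them. The difference in mean log2 ratio was 0.19 (exact permutation test, two-sided p = 1). Without wildtype replicate 2 it became -0.96 (exact permutation test, two-sided p = 0.2). The groups were then fully separate, and 0.2 is the smallest p that this test can give with the cultures left. The test therefore cannot decide whether the ratio differed between the genotypes without that culture.

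*Smoc1* and *Smoc2* were both lower in *Nhe6*-knockout cultures, but neither was among the 5 genes nearest to the other in pattern over the 6 libraries. Likeness was measured as the root mean square difference of log2(normalized count + 1), each gene centred on its mean, over 11126 other genes whose mean was 100 normalized counts or more. *Smoc2* ranked 131 in likeness to *Smoc1*, and *Smoc1* ranked 492 in likeness to *Smoc2*, with a difference of 0.63. This is a description of 6 libraries in 2 genotypes, and any gene with the same difference between genotypes ranks high.

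The 5 genes nearest to *Smoc1* were *Fam134b*, an endoplasmic reticulum autophagy receptor, *Tmem117*, *Osgin2*, *Tuba4a*, an alpha-tubulin, and *Adcy5*, an adenylyl cyclase, with differences of 0.26 to 0.34. *Fam134b* had 338, 358 and 382 normalized counts in *Nhe6*-knockout and 1463, 1738 and 1077 in wildtype replicates 1 to 3. Each of the 5 had its highest wildtype value in replicate 2 and its lowest in replicate 3, as *Smoc1* did. The 5 nearest to *Smoc2* were *Efcab7*, *Cfb*, which encodes complement factor B, *Tmem181b-ps*, *Nrsn1* and *Dkk3*, a secreted protein of the Dickkopf family, with differences of 0.20 to 0.27. *Dkk3* had 15144, 15108 and 15619 normalized counts in *Nhe6*-knockout and 43972, 26188 and 35548 in wildtype replicates 1 to 3. Wildtype replicate 2 was the lowest wildtype culture for *Dkk3*, *Efcab7*, *Cfb* and *Tmem181b-ps*, as for *Smoc2*, but not for *Nrsn1*.

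**Figure D4:**
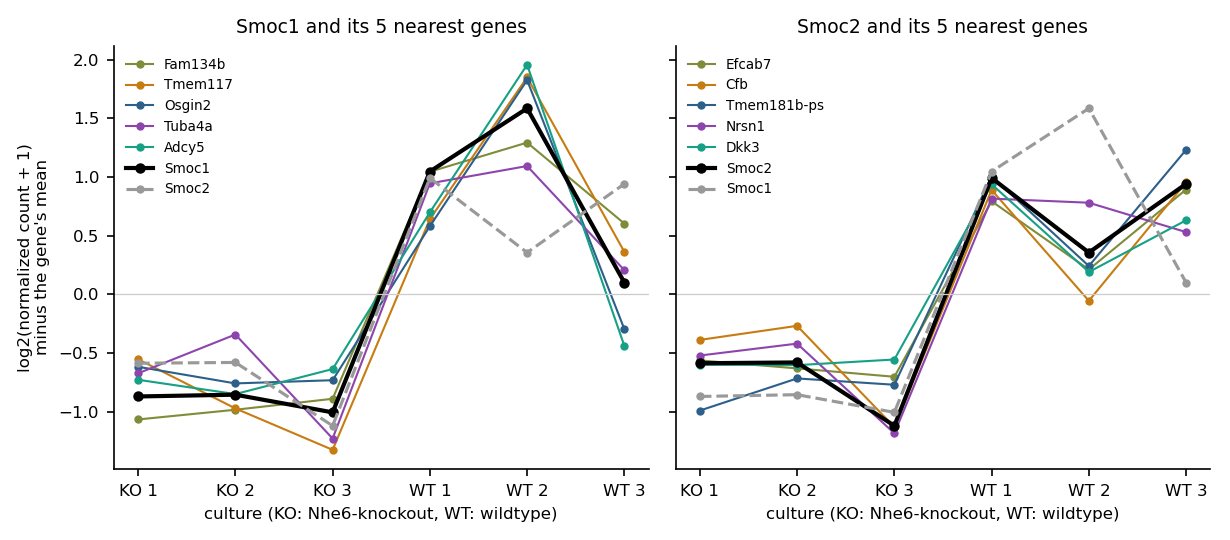
Log2(normalized count + 1) minus the gene's mean (vertical axis) in the 6 cultures for *Smoc1* (left) and *Smoc2* (right, black lines), the 5 genes of most similar pattern (coloured lines) and the other of the 2 members (grey dashed line). In wildtype replicate 2 *Smoc1* is at its highest and *Smoc2* at its lowest wildtype value.

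The known partners of the family were described through 9 lists of 93 genes, 87 of which were tested. Of these, 1 passed the threshold in edgeR's test, *Tgfbi*, beside 0.0668% of all genes tested. An unadjusted p under 0.05 was found for 14, 7 in each direction, beside 11.8% of all genes. The median log2 fold change of the 87 was 0.01. *Nhe6*-knockout cultures were all lower for 9 of the 87 genes and all higher for 14, beside 9.57% and 10.3% of all genes tested. DESeq2 called 6 of them, beside 4.69% of all genes. EdgeR's test without wildtype replicate 2 called 7, beside 2.88% of all genes.

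Among 13 tested matricellular genes other than the family, 8 had a log2 fold change below 0 and 5 above, with a median of -0.52. *Tgfbi*, which encodes a collagen-binding matrix protein induced by TGF-beta, had 36594, 35908 and 30600 normalized counts in *Nhe6*-knockout and 7146, 8182 and 7412 in wildtype replicates 1 to 3. It was higher in 3 of 3 *Nhe6*-knockout cultures, with a difference of 2.18 on the log2 scale (standard error 0.16, edgeR adjusted p = 0.0133). The adjusted p of *Tgfbi* was below 0.05 in 7 of 14 alternatives and 0.181 at the highest. *Tnc* (tenascin-C) had 15875, 16449 and 48315 in *Nhe6*-knockout and 4168, 1603 and 6177 in wildtype cultures, a difference of 2.75 on the log2 scale (standard error 0.66) whose edgeR adjusted p of 0.175 missed the threshold. *Nov* (CCN3) had 1229, 1113 and 1062 in *Nhe6*-knockout and 3158, 21911 and 4080 in wildtype cultures, a difference of -3.10 on the log2 scale (standard error 0.79, edgeR adjusted p = 0.195). DESeq2 called 3 genes of the list, *Tgfbi*, *Tnc* (adjusted p = 0.000199) and *Nov* (adjusted p = 0.000261), beside 4.69% of all genes. *Nov* was lower in *Nhe6*-knockout cultures without overlap, and 4 genes, *Tgfbi*, *Tnc*, *Thbs2* and *Postn*, were higher without overlap. The shares of all genes tested were 9.57% and 10.3%. Leaving out wildtype replicate 2, the list had 3 genes past the threshold, *Tgfbi*, *Postn* (periostin) and *Nov*, beside 2.88% of all genes. Its median was then 0.56, above 0, beside 0.00029 for all genes.

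**Figure D5:**
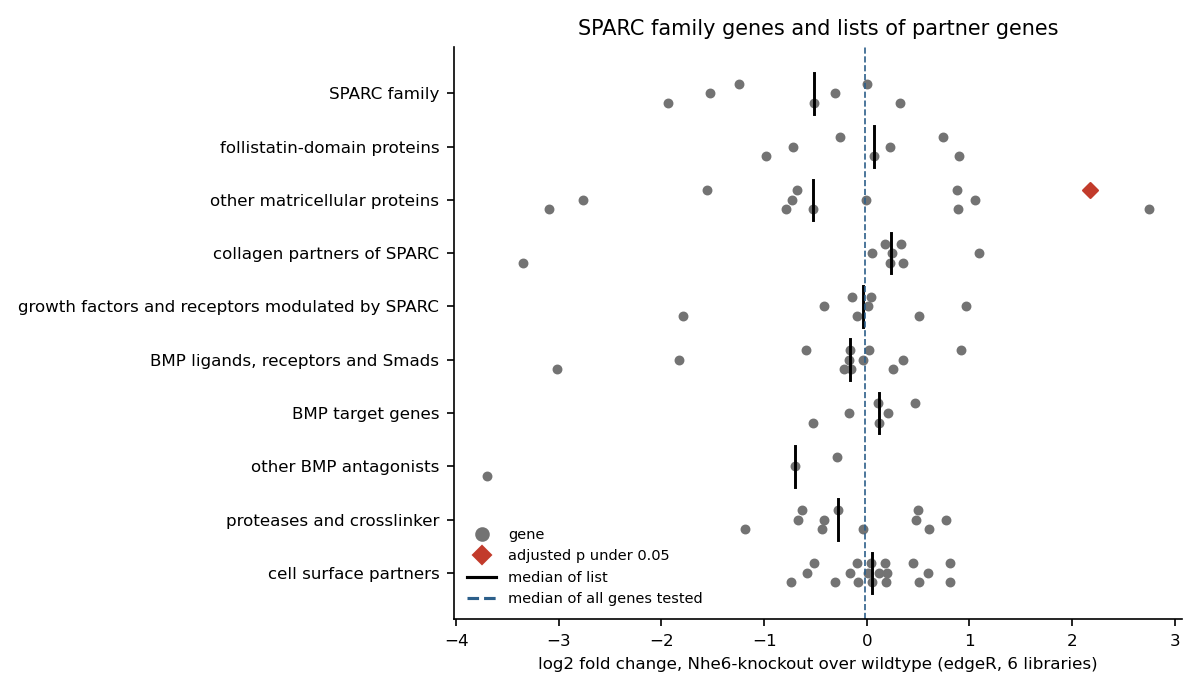
Log2 fold change of *Nhe6*-knockout over wildtype (horizontal axis) for each tested gene of the SPARC family and of 9 lists of partner genes, with the median of each list (black bar) and of all genes tested (dashed line, -0.02). The red diamond, *Tgfbi*, is the 1 gene past the threshold of 0.05 on the adjusted p.

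Collagens and their chaperone, the matrix partners of SPARC, had a median log2 fold change of 0.24, with 7 of 8 genes above 0 and 0 past the threshold (1 with an unadjusted p under 0.05 and 1 with DESeq2, *Col5a1* in both cases). *Col5a1* had 24780, 27947 and 22034 normalized counts in *Nhe6*-knockout and 10004, 16225 and 8825 in wildtype replicates 1 to 3, with a difference of 1.09 on the log2 scale (standard error 0.27, edgeR adjusted p = 0.182). Its groups did not overlap. *Col1a1* had the lowest value of the list, -3.35 (standard error 1.86), which rested on wildtype replicate 2 and was 2.10 without it. Without that culture the median was 1.05, beside 0.00029 for all genes. *Col5a1* and *Col5a2* then passed the threshold, beside 2.88% of all genes.

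Of the growth factors and receptors that SPARC is known to modulate, 0 of 8 tested passed the threshold, and the median was -0.04. The unadjusted p was under 0.05 for *Vegfa* and *Flt1*, and DESeq2 called *Flt1*. *Vegfa* had 3010, 3207 and 3836 normalized counts in *Nhe6*-knockout and 2282, 807 and 2028 in wildtype cultures, a difference of 0.97 on the log2 scale (standard error 0.38, edgeR adjusted p = 0.387). *Flt1*, a VEGF receptor, had 578, 561 and 378 in *Nhe6*-knockout and 920, 3175 and 1150 in wildtype cultures, a difference of -1.79 on the log2 scale (standard error 0.50, edgeR adjusted p = 0.242). The groups of both genes were separate, in opposite directions.

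The BMP pathway, which SMOC proteins and FSTL1 are known to touch, had no gene past the threshold in edgeR's test. Of 12 ligands, receptors and Smads, 8 were below 0 and 4 above (median -0.16), and 2 had an unadjusted p under 0.05. These were *Bmp7* at -1.83 (standard error 0.68, edgeR adjusted p = 0.370) and *Acvrl1*, which encodes the endothelial receptor ALK1, at 0.92 (standard error 0.28, edgeR adjusted p = 0.273). The 6 BMP target genes (*Id1* to *Id4*, *Smad6* and *Smad7*) lay between -0.52 and 0.47 with a median of 0.12, and none of them had an unadjusted p under 0.05. *Id1* had 880, 840 and 2598 normalized counts in *Nhe6*-knockout and 1201, 1622 and 2020 in wildtype replicates 1 to 3, so that replicate 3 was the highest of both groups. Of the other BMP antagonists, *Nog* was below the filter and *Chrd* and *Grem1* overlapped between the groups.

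The list of matrix proteases, the crosslinking enzyme *Tgm2* and the metalloproteinase inhibitor *Timp2* had a median of -0.28 over 11 genes, 0 of them past the threshold in edgeR's test or with DESeq2 and 1, *Ctsb*, with an unadjusted p under 0.05. The matrix metalloproteinase gene *Mmp2* was higher in each *Nhe6*-knockout culture, with 58822 to 72760 normalized counts against 29515 to 49695 (log2 fold change 0.61, edgeR adjusted p = 0.437). *Mmp2* was the 1 gene of this list higher without overlap, beside 10.3% of all genes tested. In 4 genes, the cathepsins *Ctsl*, *Ctsb* and *Ctsk* and the inhibitor *Timp2*, each *Nhe6*-knockout culture was lower, beside 9.57% of all genes. Their log2 fold changes were -0.44, -0.63, -0.28 and -0.67, with edgeR adjusted p-values of 0.453, 0.360, 0.532 and 0.537. Of 19 tested cell surface partners, which include integrins and syndecans, 0 passed the threshold in edgeR's test or with DESeq2, and their median was 0.05. The unadjusted p was under 0.05 for *Itgb3*, at -0.74, and *Sdc3*, at 0.51. Leaving out wildtype replicate 2, edgeR called *Nlgn1*, at 1.63 (adjusted p = 0.0346) against 0.20 with all libraries, beside 2.88% of all genes called. Follistatin-domain genes outside the family were called in 0 of 7 cases by edgeR and by DESeq2, with a median of 0.07, and *Agrn* (agrin) had the highest value, 0.90 (standard error 0.37, edgeR adjusted p = 0.421), and the 1 unadjusted p under 0.05. In edgeR's test without wildtype replicate 2, *Tmeff2* of this list was called, at -1.21 (adjusted p = 0.0424), beside 2.88% of all genes.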

How the data were processed

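RNA was measured in 6 libraries (3 *Nhe6*-knockout, 3 wildtype, grouped by their titles), made with a stranded polyA kit and sequenced for 75 cycles. The deposited table holds raw read counts per gene symbol. The submitters' processing notes name bcl2fastq 2.20.0.422, STAR 2.7.7a, HTSeq 0.13.5, DESeq2 1.26.0 and mm10, and the counting options were not given in the sources used here. The 5 lines of reads outside genes (22.2% of reads) were left out.

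Counts were tested with edgeR 4.0.16 (R 4.3.3; TMM factors 0.976 to 1.03, filterByExpr with a minimum count of 10, quasi-likelihood F test on genotype, Benjamini-Hochberg over 13479 genes, threshold 0.05). The standard error is the fold change divided by the square root of F. Normalized counts are reads scaled to the mean TMM-adjusted library size. Exon lengths and coding sequences came from GENCODE on GRCm38 (13407 tested genes matched, 403 by an older symbol). Ratios were compared by exact permutation tests (scipy 1.17.1).

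Alternatives were DESeq2 1.42.0, limma-voom 3.58.1, 2 other normalizations, 2 other filters, a replicate block, each library left out and, chosen after seeing the data, *Nhe6*-knockout replicates 1 and 2 summed. The members and the partner and marker lists were chosen with earlier results of these data known. The text names all members, genes of the partner and marker lists, and the 5 genes of most similar pattern to *Smoc1* and to *Smoc2*. The check of the targeted gene and 1 gene of the partner lists are not reported here.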

Additional observations from a re-analysis of the deposited data

How the results depend on the processing

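The count of members past the threshold was 2 with DESeq2 and 0 to 2 over the fits that left out 1 library, with 2 without wildtype replicate 2. It was 0 in all other alternatives. The count of partner genes was 6 with DESeq2, beside 4.69% of all genes. It was 0 with *Nhe6*-knockout replicates 1 and 2 summed, in a fit that called 1 gene of all those tested. It was 7 without wildtype replicate 2, beside 2.88% of all genes. Without each of the other 5 libraries it was 0, in fits that called 0 to 4 of all genes tested. The members without overlap numbered 2 to 3 with 1 library left out. *Sparcl1* joined without wildtype replicate 2, lower in *Nhe6*-knockout cultures, as were 19.3% of all genes in that fit. *Sparc* joined without wildtype replicate 1 and *Fstl1* without wildtype replicate 3. Both of these were higher in *Nhe6*-knockout cultures, opposite to *Smoc1* and *Smoc2*. The share of all genes was not computed for those fits, so no result about *Sparc* or *Fstl1* is drawn from this. The edgeR adjusted p in those fits was 0.7 for *Sparc* and 0.451 for *Fstl1*. Without wildtype replicate 2 the difference in log2 ratio turned to 0.25 for *Smoc1* to *Smoc2* and to -0.96 for *Sparcl1* to *Sparc*; with another library left out it lay between -0.79 and -0.23 and between 0.10 and 0.94. The log2 fold change of *Sparc* turned above 0 with upper-quartile normalization (0.03), at least 10 counts in every library (0.0031), limma-voom (0.02), the replicate block (0.02), without *Nhe6*-knockout replicate 3 (0.02) and without wildtype replicate 1 (0.19). That of *Sparcl1* turned to 0.21 with limma-voom and 0.04 with the replicate block, that of *Spock2* to 0.48 without wildtype replicate 1, and that of *Spock3* to 0.28 without wildtype replicate 2. Over the fits without 1 library the log2 fold change ranged from -0.12 to 0.19 for *Sparc*, from -0.66 to 0.48 for *Spock2* and from -2.27 to 0.28 for *Spock3*. The cause was not tested.

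Equal replicate numbers were not shown to pair cultures: deviations of same-numbered libraries correlated at 0.276, -0.146 and 0.145 over 11127 genes, and 2 of 6 libraries correlated best with their own number. With the replicate block, 0 members and 0 partner genes were past the threshold, and the difference in log2 ratio was -0.30 for *Smoc1* to *Smoc2* and 0.19 for *Sparcl1* to *Sparc*. Depth limits *Spock1*, with at most 5 reads in a library, and *Spock3*.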
